A study of Mus musculus with 8 samples.

Results

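The BCL2 family survival genes were taken as 9 mouse genes and their surroundings: the anti-apoptotic genes Bcl2, Bcl2l1 and Mcl1, the pore-forming effectors Bax and Bak1, and the BH3-only genes Bcl2l11, Bbc3, Pmaip1 and Bid. Overlapping peaks of 8 deposited ATAC-seq peak lists were merged into regions, and a region belonged to a gene when its midpoint lay inside the gene's mm10 span or within 50 kb of it. This gave 133 of 90736 regions. The number per gene ran from 33 at Bcl2 to 7 at Pmaip1, and no region fell to more than 1 gene.

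ATAC-seq reads open chromatin as places where a transposase can cut and tag DNA. The cells were haematopoietic stem cells (HSC) of the long-term class, taken by sorting from the bone marrow of Vav1-cre iMOS Bcl11a mice aged 2 to 3 months in the sample labels, with 5000 nuclei per library. The 4 groups were MUT T1, MUT T2, WT T1 and WT T2, each with 2 libraries, where MUT or WT is the labelled iMOS Bcl11a genotype and T1 or T2 the sorted population. The submitters' stated questions were the role of Bcl11a inside HSC and the effect of overexpressing cells on wild-type HSC around them. All 4 groups carry Vav1-cre, whose promoter is active in blood cells and some endothelium, so the WT libraries are no cre-free control. Which population carries the transgene, and whether libraries of a group came from separate animals, is stated in no source used here. Differences between libraries may therefore be technical, and p-values measure only the spread between these libraries.

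BCL2 family proteins decide at the outer membrane of mitochondria whether a cell lives or dies. BCL2, BCL-XL (the product of Bcl2l1) and MCL1 bind and hold BAX and BAK in check. BH3-only proteins release that hold, after which BAX and BAK open pores and cytochrome c activates caspases. MCL1 is needed for survival of mouse HSC, and the transcription factor BCL11A supports Bcl2 expression in mouse lymphoid progenitors. Openness of a gene's start or of a distal element does not give the gene's expression.

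The lists held 62232 to 74785 peaks on the chromosomes used. Depth was read from the lists themselves, as the genome background that the peak caller had used (fragments per position). Replicates 1 and 2 had 3.38 and 2.03 in MUT T1 libraries, 3.21 and 3.10 in MUT T2 libraries, 3.24 and 3.29 in WT T1 libraries, and 2.45 and 1.89 in WT T2 libraries. Depth was thus lowest in the pair of WT T2 libraries and in replicate 2 of MUT T1. Values below are in the order of replicates. A region called in all 8 libraries lay within 1 kb of a gene end for 64.8% of 21631 protein-coding genes. It did for all 10 HSC marker genes, among them Mecom, Hlf and Procr. It also did for 4 of 4 megakaryocyte genes, 2 of 5 B cell, 1 of 5 T and NK cell, 1 of 5 neutrophil and monocyte, 3 of 5 erythroid and 3 of 4 stroma and endothelium genes. Cd3e, Rag1, Elane, Gata1 and Cdh5 were among those without one. With megakaryocyte genes at 4 of 4, this measure does not by itself tell HSC from other blood cells. The part of other cell types in the results was not tested.

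The sequences at 5 starts are shown because these starts carry the contrasts described below, and they were chosen after the values were seen. Bax had the highest and Bbc3 the lowest fold enrichment at its start, Mcl1 pairs a low enrichment with many fragments, Bak1 and one Bcl2l1 start hold the letters of the BCL11A motif, and that Bcl2l1 start lay in no region. Each runs from 250 bases before to 50 bases after the start, from the RefSeq table of GRCm38.p6, the same build as mm10. The table matched 8 of the 9 genes with 13 starts, and Pmaip1 was not matched. Capitals mark exact matches on either strand to 7 short motifs. The motif of BCL11A is TGACCA. The GC box, bound by SP factors, is GGGCGG, and neighbouring GC boxes can overlap. The core bound by ETS factors was searched as CCGGAA. The box bound by NF-Y is CCAAT. The core of the cyclic AMP response element (CRE) was searched as ACGTCA. The E-box was searched as CACGTG. The motif of GATA factors was searched as AGATAA.
Bax, chr7:45466849-45467148, minus strand: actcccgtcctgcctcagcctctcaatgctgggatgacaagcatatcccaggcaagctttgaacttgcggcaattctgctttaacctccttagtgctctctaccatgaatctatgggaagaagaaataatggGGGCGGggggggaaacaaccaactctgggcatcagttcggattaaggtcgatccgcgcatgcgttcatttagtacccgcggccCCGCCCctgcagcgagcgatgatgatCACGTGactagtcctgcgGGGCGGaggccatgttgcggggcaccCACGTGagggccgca
Bbc3, chr7:16310011-16310310, plus strand: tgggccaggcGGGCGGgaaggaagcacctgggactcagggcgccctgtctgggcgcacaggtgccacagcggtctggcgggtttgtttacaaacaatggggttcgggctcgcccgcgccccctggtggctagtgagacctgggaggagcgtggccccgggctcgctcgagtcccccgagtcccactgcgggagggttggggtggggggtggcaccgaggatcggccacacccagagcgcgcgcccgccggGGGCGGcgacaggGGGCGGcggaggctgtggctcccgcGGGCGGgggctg
Mcl1, chr3:95658471-95658770, plus strand: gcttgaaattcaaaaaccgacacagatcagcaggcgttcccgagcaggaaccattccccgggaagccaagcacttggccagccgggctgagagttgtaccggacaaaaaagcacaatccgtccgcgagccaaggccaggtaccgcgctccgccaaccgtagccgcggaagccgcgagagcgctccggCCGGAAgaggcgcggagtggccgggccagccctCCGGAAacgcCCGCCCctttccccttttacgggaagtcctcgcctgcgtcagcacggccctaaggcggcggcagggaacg
Bak1, chr17:27028578-27028877, minus strand: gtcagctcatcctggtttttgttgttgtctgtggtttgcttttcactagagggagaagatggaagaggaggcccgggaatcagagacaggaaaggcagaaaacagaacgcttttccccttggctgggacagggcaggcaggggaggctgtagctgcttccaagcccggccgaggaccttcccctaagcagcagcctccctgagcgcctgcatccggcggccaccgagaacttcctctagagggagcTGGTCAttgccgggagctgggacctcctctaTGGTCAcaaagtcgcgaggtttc
Bcl2l1, chr2:152828440-152828739, minus strand: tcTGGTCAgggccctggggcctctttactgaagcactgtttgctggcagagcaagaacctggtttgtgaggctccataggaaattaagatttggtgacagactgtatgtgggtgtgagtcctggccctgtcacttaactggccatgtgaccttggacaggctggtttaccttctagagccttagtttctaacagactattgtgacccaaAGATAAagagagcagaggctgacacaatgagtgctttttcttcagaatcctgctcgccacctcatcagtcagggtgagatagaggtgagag

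The 13 starts were rich in G and C, with a median of 65.7% (49.3% to 78.0%) against 52.7% over all 32851 starts of the table. They held a median of 27 CpG dinucleotides, against 7 over all starts. GC boxes were in 9 of the 13 sequences (35.7% of all starts) and ETS letters in 4 (14.9% of all). The 9 sequences with a GC box belong to 6 genes, and neighbouring Bbc3 sequences overlap, so the 13 are not independent. The BCL11A letters were in 2 (13.6% of all). In Bak1 a match begins 4 bases before and another 27 bases after the start, and in Bcl2l1 1 begins 248 bases before the start shown. CCAAT was in 3 of 13, from 2 genes (37.4% of all), and CRE letters in 1, at Bcl2 (7.51% of all). The E-box was in 2, at Bax and Bbc3 (7.15% of all), and GATA letters in 1, at Bcl2l1 (11.2% of all). A match to such short letters describes the sequence and is not a binding site.

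Most starts of these genes were open in all 8 libraries. The 8 genes with a listed start each had 1 or more inside a region called in every library, against 62.4% of 17274 protein-coding genes in the table. This is not particular to them. Among genes with a listed start in the 2 pathway lists described below, it held for 22 of 22 apoptosis genes. It held for 10 of 13 other BCL2 family genes, all but Bcl2a1a, Bcl2a1b and Bcl2l15. For Pmaip1 a region over a gene end (chromosome 18, 66457619 to 66459042) was called in every library. Of the 13 listed starts, 12 lay in such a region. The exception was the Bcl2l1 start at 152828489, printed above, which no library called, while the other 2 Bcl2l1 starts shared the region from 152830381 to 152831875. Mcl1 and Bcl2l1 have no region within 1 kb of the ends of their gene spans, because the spans in the gene table reach past the called starts.

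Among the anti-apoptotic genes, and among all 9, Bcl2l1 had the most fragments at its start. Bcl2l1 had 194 and 159 fragments at the summit of its start region in MUT T1 libraries, 215 and 175 in MUT T2 libraries, 193 and 203 in WT T1 libraries, and 178 and 168 in WT T2 libraries, the highest of the 9 genes in every library. Fragment numbers were recovered from the peak's ratio together with its −log10 p-value. Within its own list that summit stood above 99.4% to 99.9% of peaks by fragments. By the authors' fold enrichment, which divides the summit by the background around it, it stood above 58.2% to 77.7% only, with 8.39 and 8.81 in MUT T1 libraries, 8.72 and 8.22 in MUT T2 libraries, 8.12 and 8.0 in WT T1 libraries, and 7.94 and 9.37 in WT T2 libraries.

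Mcl1, chr3:95658190-95659709, had 137 and 125 summit fragments in MUT T1 libraries, 153 and 131 in MUT T2 libraries, 146 and 145 in WT T1 libraries, and 147 and 129 in WT T2 libraries. All 8 libraries thus lay between 125 and 153, and the groups overlapped. These fragment numbers are not adjusted for the depth of the library. Its fold enrichment was 4.70 ± 0.615 over MUT and 4.90 ± 0.662 over WT libraries (n = 4 each, SD), closer together than their spread. Bcl2, chr1:106713621-106715019, had 121 and 83 summit fragments in MUT T1 libraries, 131 and 117 in MUT T2 libraries, 115 and 139 in WT T1 libraries, and 126 and 109 in WT T2 libraries. The lowest was MUT T1 replicate 2, one of the shallow libraries, while the shallow WT T2 pair had 126 and 109. The part of depth in these values was not tested. The fold enrichment at Bcl2 was 5.30 ± 0.249 over MUT and 5.65 ± 0.882 over WT libraries (SD, n = 4 each), again overlapping.

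Among the effectors, Bax had the strongest start of the 9 genes by fold enrichment. At chr7:45466304-45467186 it reached 9.51 and 11.7 in MUT T1 libraries, 10.5 and 11.1 in MUT T2 libraries, 9.34 and 11.2 in WT T1 libraries, and 12.5 and 13.5 in WT T2 libraries. Both WT T2 libraries were above the other 6, while MUT and WT libraries as a whole overlapped. The summit lay 37 to 94 bases after the Bax start in all 8 libraries. Bak1, whose product is the other pore former, had 6.54 ± 1.11 over MUT and 6.73 ± 0.965 over WT libraries (SD, n = 4 each) at chr17:27027324-27028923. Its summit lay between 8 bases before and 22 bases after the start.

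The BH3-only genes Bbc3 and Bcl2l11 had the lowest fold enrichments of the start regions in each library. Bbc3, which encodes the p53 target PUMA, had the widest region of the whole set, 2344 bp at chr7:16308955-16311298, which took in all 3 of its listed starts. The fold enrichment of Bbc3 was the lowest of all start regions, at 2.96 and 3.29 in MUT T1 libraries, 3.11 and 3.16 in MUT T2 libraries, 2.93 and 2.86 in WT T1 libraries, and 3.70 and 3.46 in WT T2 libraries. Its summit fragments were not low, at 119 and 95 in MUT T1 libraries, 126 and 120 in MUT T2 libraries, 122 and 117 in WT T1 libraries, and 137 and 102 in WT T2 libraries. Bbc3 thus stood above 86.8% to 93.3% of peaks in its list by fragments and above 2.24% to 5.66% by fold enrichment.

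Bcl2l11, which encodes the BH3-only protein BIM, had a similar pair of start regions. The first, chr2:128125510-128126486, had 4.04 ± 0.342 over MUT and 3.86 ± 0.451 over WT libraries, and the second, chr2:128127021-128128178, had 3.84 ± 0.665 over MUT and 3.95 ± 0.606 over WT libraries (fold enrichment, SD, n = 4 each). Both held 109 to 174 summit fragments over the 8 libraries. Bid, which links death receptors to mitochondria, had 7.79 ± 0.778 over MUT and 8.78 ± 0.998 over WT libraries at chr6:120916246-120917134. Pmaip1, which encodes NOXA, the partner of MCL1, had 7.19 and 10.6 in MUT T1 libraries, 7.52 and 6.88 in MUT T2 libraries, 7.99 and 8.09 in WT T1 libraries, and 10.4 and 8.95 in WT T2 libraries. The groups overlapped at both genes.

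**Figure D1:**
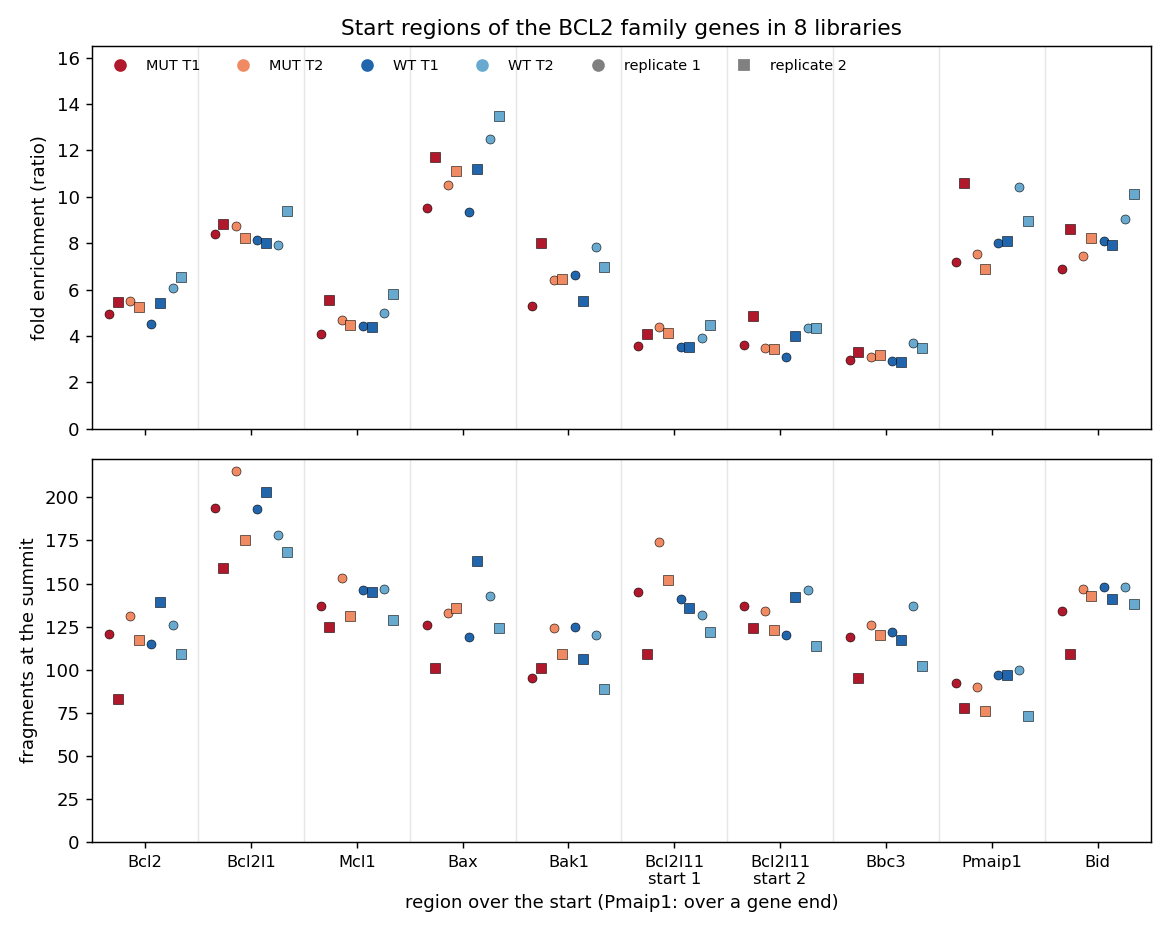
Fold enrichment (upper panel, a ratio) and fragments at the summit (lower panel) of the start region of each gene, by library: colour gives the group and shape the replicate. Bax stands highest by fold enrichment (9.34 to 13.5) and Bcl2l1 by fragments (159 to 215), while Bbc3 and Bcl2l11 are low in the upper panel and not in the lower one.

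The order of the genes therefore depends on the scale. The local background at the Bbc3 start was 28.2 to 41.0 fragments per position and at the Bcl2l11 starts 24.8 to 39.8, against 7.75 to 13.7 at the Bax start. Over all regions called in every library, those with a listed start had median local backgrounds of 9.07 to 14.3 per library, and the others 3.49 to 6.37. Median summit fragments were 90 to 124 and 38 to 57 in the same 2 classes, while median fold enrichment was 7.28 to 8.93 and 7.07 to 8.22. At Bbc3, Bcl2l11 and Mcl1 the surroundings of the summit were thus themselves full of fragments, and the ratio was low beside them. Fold enrichment also moved with depth between libraries: its median over regions called everywhere was 7.87 in MUT T1 replicate 2 and 8.12 and 8.36 in WT T2, against 7.11 to 7.77 in the other 5 libraries. The part of depth in the higher Bax values of WT T2 was not tested.

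**Figure D2:**
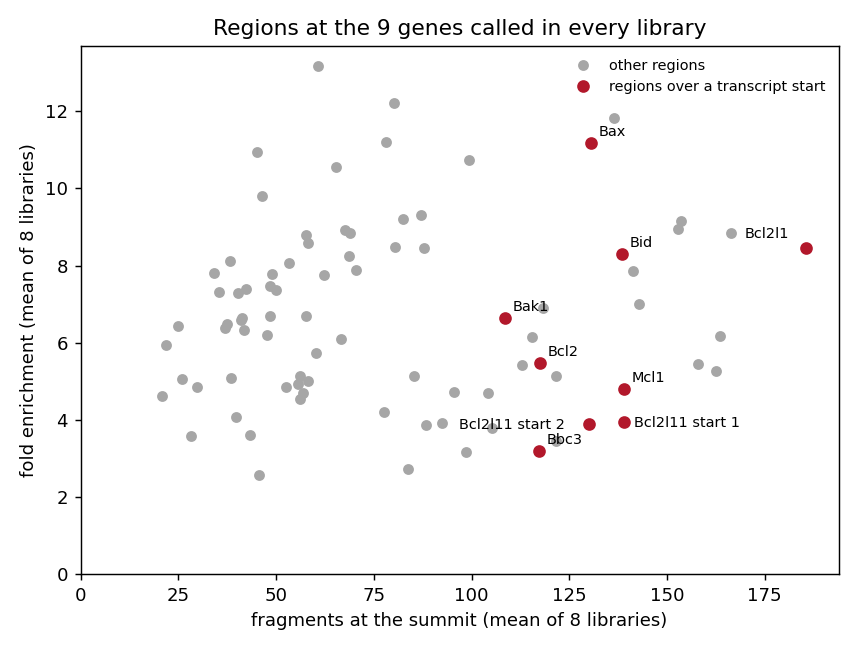
Fragments at the summit (x) against fold enrichment (y), each the mean of 8 libraries, for the 85 regions at the 9 genes called in every library. Red points lie over a listed start of the named gene: Bax, Bid and Bcl2l1 are high on both axes, while Bbc3, Bcl2l11 and Mcl1 combine many fragments with a low ratio.

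The strongest region of a gene was taken as the one, among those called in every library, whose lowest library value was highest, and it was often at some distance from the gene. For Pmaip1 it lay 48.0 kb from the span with no other protein-coding gene nearer (fold enrichment 12.8 and 12.8 for MUT T1, 12.9 and 11.6 for MUT T2, 13.2 and 11.5 for WT T1, 15.6 and 14.9 for WT T2). It stood above 93.6% to 98.8% of the peaks of each list by fold enrichment, with 44 to 82 summit fragments. For Bcl2l11 the strongest region lay 41.2 kb past the gene end (8.50 to 11.5) and for Bcl2 26.3 kb past it (7.40 to 9.77), both nearer to the member than to another protein-coding gene. By the mean over libraries, a ranking added after the data were seen, the choice was the same for these and 3 more genes, 6 of the 9. For Bid, Mcl1 and Bax it depended on the rule. The region inside Bid (7.13 to 9.29, mean 7.79) had the highest lowest value, but one 38.4 kb from the gene in or nearest to Mical3 had a higher mean (7.0 to 10.8, mean 9.21). For Mcl1 the rule gave a region in or nearest to Ensa (8.22 to 9.71, mean 8.85), while one 11.5 kb from the gene and nearest to Mcl1 itself had a higher mean (6.52 to 10.7, mean 9.30). For Bax the start region (9.34 to 13.5) and a region 10.1 kb from the gene, in or nearest to Gys1 (7.71 to 14.9), both had a mean of 11.2. For the other 3 genes it lay at a neighbour: in or nearest to Tpx2 for Bcl2l1 (10.3 to 13.8), Sae1 for Bbc3 (10.5 to 15.1) and Ggnbp1 for Bak1 (9.70 to 13.1). Nearness does not show which gene such a region serves, and 67 of the 133 regions were inside a member or nearest to it.

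In all, 85 of the 133 regions (63.9%) were called in every library, against 54.6% of all regions, and 12 (9.02%) in 1 library only, against 11.6%. The share called in every library was 36.4% at Bcl2, 55.6% at Bid, 64.3% at Bax, 68.8% at Bcl2l1, 75% at Bak1, 76.9% at Bbc3, 78.6% at Bcl2l11, 80.0% at Mcl1 and 85.7% at Pmaip1. Regions called everywhere were wider, with a median of 941 bp against 440 bp for the others, as over all regions (927 and 452 bp). A region joins the overlapping peaks of all libraries that call it, so its width in part follows from the number of calls.

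Bcl2 held 21 of the 48 regions that were not called in every library, more than any other of the 9 genes. Its span of 176115 bp contained 24 regions, none of them over the start, and 6 (25.0%) were called in every library, against 48.4% of 43212 regions that lie inside a protein-coding gene and hold no listed start. The 6 had midpoints 13.3, 26.0, 60.5, 70.7, 102 and 165 kb along the gene. The first, chr1:106700553-106701399, had 5.75 to 9.98 fold enrichment, and the one at 102 kb, chr1:106612074-106613279, 6.27 to 8.53. Bcl2 regions numbered 27 and 20 in MUT T1 libraries, 24 and 21 in MUT T2 libraries, 24 and 24 in WT T1 libraries, and 20 and 19 in WT T2 libraries. The WT T1 libraries called the same 24 regions. In MUT T1, 17 of 30 regions called in either library were called in both, in MUT T2 18 of 27 and in WT T2 15 of 24.

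**Figure D3:**
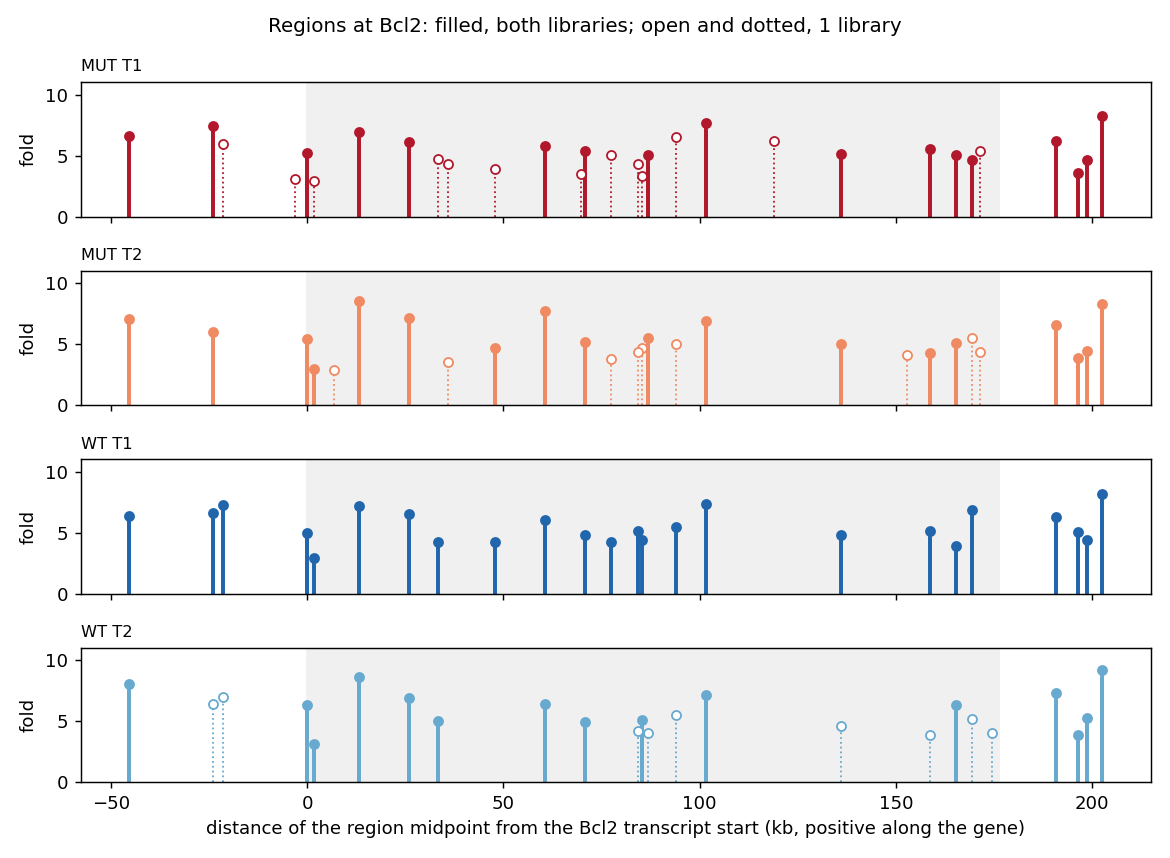
Regions at Bcl2 by distance of the midpoint from the transcript start (kb, x) and mean fold enrichment of the libraries that called them (y), 1 panel per group; grey marks the gene span. Filled points were called in both libraries of the group and open points in 1, and WT T1 has no open point.

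Whether MUT and WT differ in the number of open regions at a gene was tested per gene over all 19067 protein-coding genes with a region, by an exact two-sided permutation test of 4 libraries against 4. Bcl2 had 23.0 ± 3.16 regions over MUT and 21.8 ± 2.63 over WT libraries (SD, n = 4 each, exact permutation p = 0.629). Bid had 6.50 ± 1.29 and 5.50 ± 0.577 in MUT and WT libraries (exact permutation p = 0.371) and Bbc3 11.8 ± 0.50 and 11 ± 0.816 (exact permutation p = 0.371). For the other 6 genes the means differed by at most 0.5 regions (exact permutation p = 0.571 to 1.00). No gene of the whole table passed after Benjamini-Hochberg adjustment (adjusted p = 1.00 for all 9 members), and the smallest exact permutation p this design allows is 0.0286, so that adjustment over 19067 genes leaves little room to pass. At an exact permutation p under 0.05 before adjustment, 144 genes (0.755%) had more regions in MUT and 19 (0.0996%) fewer, none of them among the 9. The lists held a mean of 71048 peaks in MUT and 68476 in WT libraries. The part of depth in these numbers of genes was not tested.

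No region at these genes split all MUT from all WT libraries. Of the 133 regions, 0 were called by the 4 MUT lists together with none of the WT lists (0.222% of all regions), and 0 the other way round (0.0606% of all). With those percentages over all regions, a count of 0 in 133 reads as no result about these genes. Without MUT T1 replicate 2, the shallow MUT library, 2 regions were called in the other 3 MUT libraries and no WT library. One lay inside Bid, 1.62 kb past its start (2.56 in MUT T1 replicate 1, 2.52 and 3.43 in MUT T2), and the other 45.9 kb before Bak1 in or nearest to Itpr3 (5.01, and 5.09 and 3.33). Without WT T2 replicate 2 there was 1 region called in all MUT and no other WT library, inside Bcl2 at 86.8 kb. Without MUT T1 replicate 1 there was 1 in the reverse direction, inside Bcl2 at 33.3 kb. Leaving out a library eases the rule for every region of the genome. Shares over all regions were not computed for these counts, so they too read as no result about these genes. Among the 85 regions called everywhere, 0 had fold enrichments that did not overlap between MUT and WT, against 0.573% of all such regions with MUT above and 2.46% with MUT below. With each library's values divided by its median, 1 region did not overlap, 12.8 kb outside Pmaip1 (1.47 and 1.60 for MUT T1, 1.70 and 1.45 for MUT T2, against 1.13 and 1.43 for WT T1 and 1.32 for each WT T2 library), beside 1.68% of all regions with MUT above and 1.72% with MUT below.

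In each comparison of 2 groups, a region counts as gained when the first group has it in both lists and the second in neither, and as lost in the opposite case. For T1 cells by genotype, MUT T1 against WT T1, there was 1 gained region (1.26% of all regions) and there were 3 lost regions (2.13% of all), so shares of 0.752% and 2.26% of the 133 were close to those over all regions. The region gained was inside Bcl2, 86.8 kb from its start (chr1:106627150-106627859), with fold enrichments of 4.62 and 5.53 in MUT T1 libraries, 6.15 and 4.90 in MUT T2 libraries, no call in WT T1 libraries, and 4.05 in replicate 2 alone of WT T2. It rested on 29 to 55 summit fragments in the MUT libraries and 22 in the WT one. Of the regions lost, 1 was 33.5 kb before Bcl2l11, in or nearest to Acoxl (no call in MUT T1, against 3.35 and 3.68 in WT T1). The other 2 were at Mcl1, 4.94 kb before its start (no call in MUT T1, against 2.66 and 2.37 in WT T1) and 26.2 kb after it, in or nearest to Adamtsl4 (no call in MUT T1, against 3.32 and 3.24 in WT T1). Each of the 3 was also called in 1 MUT T2 library and in no WT T2 library. Leaving out a library asks for fewer calls, and for such counts, here and below, shares over all regions were not computed. Gained and lost regions then numbered 4 and 14 without MUT T1 replicate 1 and 9 and 5 without MUT T1 replicate 2. They numbered 1 and 4 without WT T1 replicate 1, and 1 and 6 without WT T1 replicate 2.

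For T2 cells by genotype, MUT T2 against WT T2, both MUT libraries were deeper (3.21 and 3.10) than both WT libraries (2.45 and 1.89). Depth and genotype cannot be told apart in this comparison. The gained regions numbered 6, or 4.51% of the 133 beside 3.95% of all regions, and 1 region (0.752%) was lost, beside 0.457% of all. With equal numbers of peaks per list, 3 were gained and 4 lost, which turns the balance round. With depth scaled to the shallowest list, 5 were gained and 2 lost, which keeps it. That scaling only rescored peaks already called and did not make the lists equal. It left 72086 and 69382 peaks in the MUT T2 lists, against 66668 and 62231 in the WT T2 lists. Shares over all regions were not computed for these alternative lists. The 6 were 1 each at Bak1, Bax, Bcl2, Bcl2l1, Bcl2l11 and Bid. The strongest was 14.6 kb before Bax, in or nearest to Dhdh, with 8.33 and 7.81 in MUT T2, 9.27 in MUT T1 replicate 2, 6.32 in WT T1 replicate 1 and no call in WT T2. The region inside Bcl2l1, 60.7 kb along the gene (chr2:152767585-152768024), had 4.45 in MUT T1 replicate 1, 7.24 and 4.37 for MUT T2, 6.80 and 6.39 for WT T1, and no call in the 3 shallow libraries.

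The region inside Bcl2 at 47.8 kb had the same pattern of calls, with 3.88 in MUT T1 replicate 1, 4.51 and 4.87 for MUT T2, and 4.48 and 3.99 for WT T1. At Bcl2l11 the region 40.4 kb before the start, in or nearest to Acoxl, had 5.46 and 5.15 in MUT T2 and no call in WT T2. It also had 4.07 in MUT T1 replicate 1 and 5.29 in WT T1 replicate 2. The region lost was inside Bcl2 at 33.3 kb (chr1:106680742-106681286), with no call in either MUT T2 library, against 5.51 and 4.57 in WT T2. It also had 4.70 in MUT T1 replicate 1 and 4.32 and 4.18 in WT T1. It was thus missing from the deeper MUT T2 pair and called in the shallower WT T2 pair, there on 18 and 13 summit fragments. Gained and lost regions numbered 11 and 3 without MUT T2 replicate 1, 15 and 4 without MUT T2 replicate 2, 10 and 2 without WT T2 replicate 1, and 8 and 2 without WT T2 replicate 2.

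Within a genotype, MUT T1 against MUT T2 had 0 gained (0.641% of all regions) and 0 lost (1.74% of all). Gained and lost regions numbered 1 and 7 without MUT T1 replicate 1, 7 and 3 without MUT T1 replicate 2, 3 and 4 without MUT T2 replicate 1, and 1 and 5 without MUT T2 replicate 2. WT T1 against WT T2 had 7 gained, 5.26% of the 133 beside 3.9% of all regions, and 1 lost, 0.752% beside 0.632%. Both WT T1 libraries were deeper (3.24 and 3.29) than both WT T2 libraries (2.45 and 1.89), so depth and population cannot be told apart here. With equal numbers of peaks per list 3 were gained and 3 lost, and with depth scaled to the shallowest list 6 and 1. That scaling left 68795 and 69949 peaks in the WT T1 lists, against 66668 and 62231 in the WT T2 lists. The gains were 2 each at Bcl2, Bcl2l11 and Mcl1 and 1 at Bcl2l1. Of these, 3 are the regions lost in MUT T1 against WT T1, as both comparisons use the WT T1 libraries, and 2 were gained in MUT T2 against WT T2, as both use WT T2. The others were inside Bcl2 at 77.3 kb (4.16 and 4.26 in WT T1, no call in WT T2) and 47.0 kb before Bcl2l11 (7.31 and 4.66 in WT T1, no call in WT T2). The Bcl2 region was also called in MUT T1 replicate 1 (5.02) and MUT T2 replicate 1 (3.80). The Bcl2l11 one, in or nearest to Acoxl, was also called in MUT T1 replicate 1 (4.56). The loss was 19.2 kb outside Bcl2l1, nearest to Id1, with no call in WT T1, against 2.14 and 2.50 in WT T2. That region was also called in MUT T1 replicate 1 (2.25) and MUT T2 replicate 2 (1.99). Gained and lost regions numbered 10 and 1 without WT T1 replicate 1, 11 and 1 without WT T1 replicate 2, 15 and 3 without WT T2 replicate 1, and 9 and 2 without WT T2 replicate 2.

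**Figure D4:**
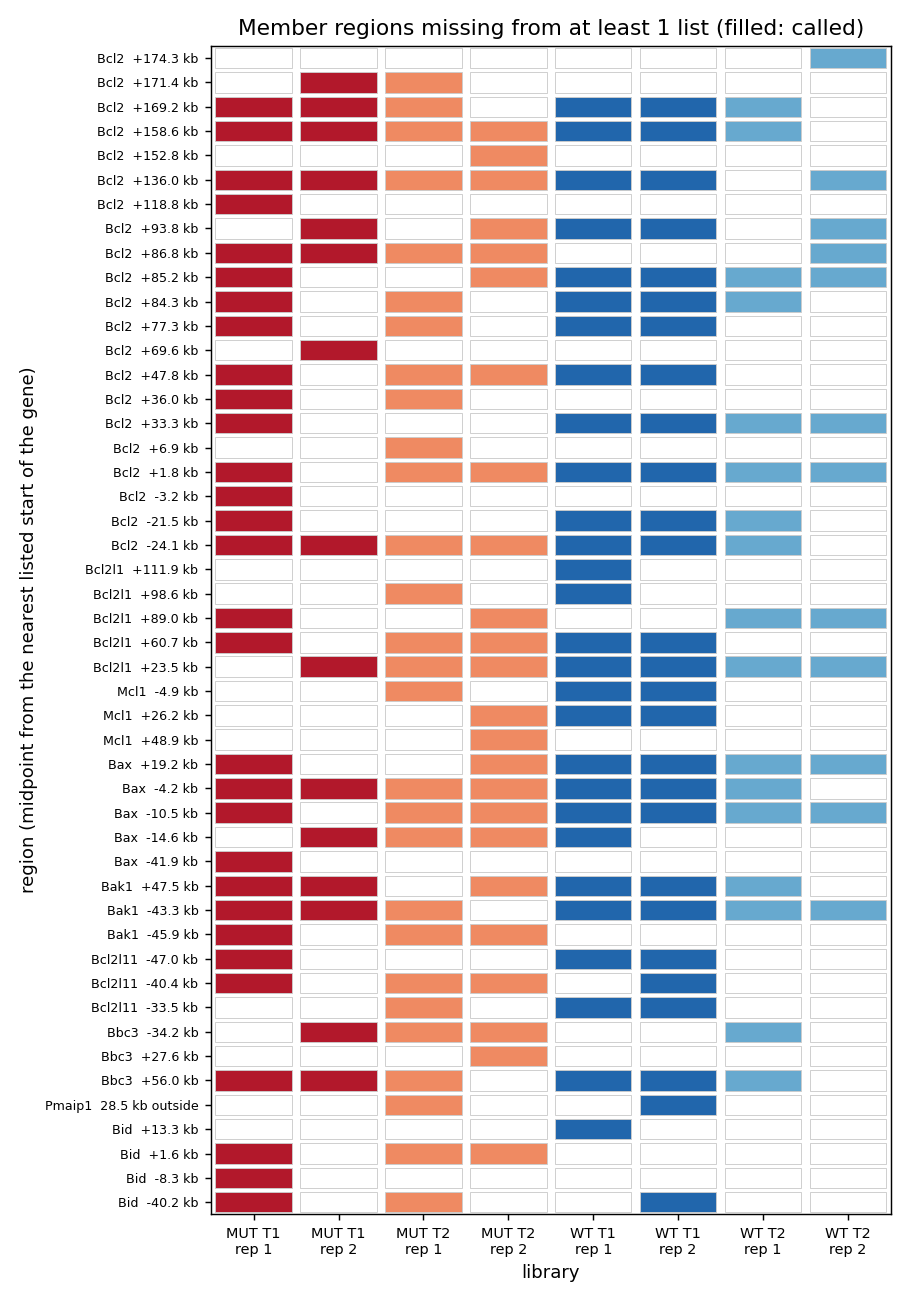
Calls of the 48 regions at the 9 genes that are missing from at least 1 list: rows are regions, named by gene and distance from its nearest listed start (kb), columns are libraries, and a filled cell is a call. Replicate 2 of MUT T1 and the WT T2 pair have the fewest filled cells (15, 17 and 12), and no row splits the 4 MUT from the 4 WT columns.

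Calls of these 48 variable regions followed depth. Of the 48, 30 and 15 were called in MUT T1 libraries, 28 and 24 in MUT T2 libraries, 28 and 27 in WT T1 libraries, and 17 and 12 in WT T2 libraries. As shares these were 62.5% and 31.2% in MUT T1 libraries, 58.3% and 50% in MUT T2 libraries, 58.3% and 56.2% in WT T1 libraries, and 35.4% and 25.0% in WT T2 libraries. Over all 41159 variable regions the shares were 57.7% and 31.0%, 58.6% and 49.6%, 51.2% and 53.5%, and 39.6% and 27.3% in the same order of libraries. The 3 shallow libraries had the lowest shares on both measures, and the part of depth in the calls was not tested further.

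**Figure D5:**
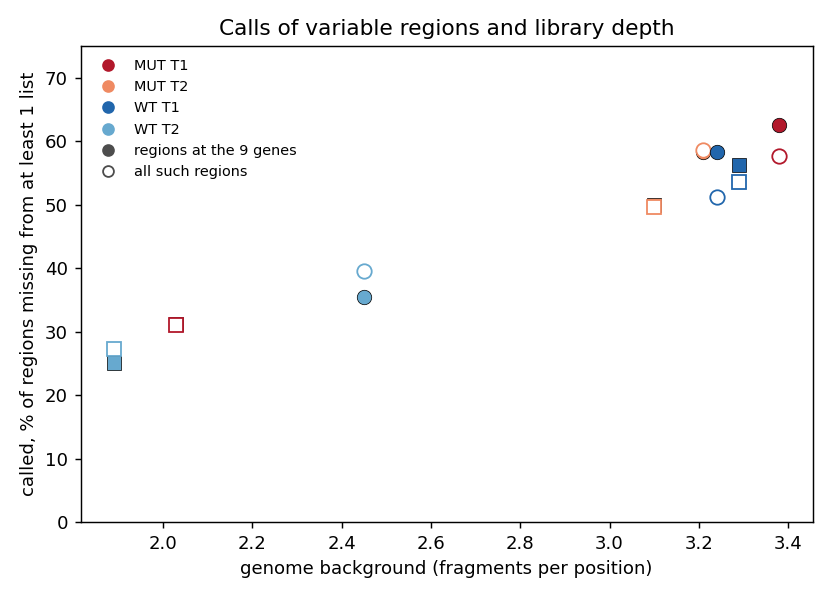
Genome background of each library (x, fragments per position) against the share of variable regions called (y, %), for the 48 regions at the 9 genes (filled) and all 41159 such regions (open); colour is the group, circles replicate 1 and squares replicate 2. The 3 libraries with a background below 2.5 call 25.0% to 35.4% of the 48, and the other 5 call 50% to 62.5%.

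The rest of the pathway was described by 2 further lists. Of 16 other BCL2 family genes, such as Bcl2l2, Bad, Bik, Bmf and Bok, 12 (75%) had a region called in every library within 1 kb of a gene end, against 64.8% of all protein-coding genes and 7 of the 9 members. The 4 without one were Bcl2a1a, Bcl2a1b, Bcl2l10 and Bcl2l14, while Bcl2a1d, also on the list, had one. Bcl2a1 copies are near-identical, and whether reads could be placed among them was not tested. Of 26 apoptosis genes, such as Apaf1, Casp9, Trp53 and Mdm2, 24 (92.3%) had such a region, all but Xiap and Mdm4. The other family genes had 134 regions, of which 65.7% were called in every library, and the apoptosis genes 278, of which 59.0% were. A region counted for Bid was in or nearest to Bcl2l13, one of the other family genes. That list and the 9 members may therefore share regions. Neither list had a region that split all MUT from all WT libraries. In MUT T1 against WT T1, the other family genes had 1 region gained (0.746%) and 2 lost (1.5%) and the apoptosis genes 1 (0.36%) and 5 (1.8%), beside 1.26% and 2.13% of all regions. In MUT T2 against WT T2 the other family genes had 2 gained (1.5%) and 0 lost and the apoptosis genes 15 (5.4%) and 2 (0.719%), beside 3.95% and 0.457% of all regions. In MUT T1 against MUT T2 the other family genes had 1 gained (0.746%) and 1 lost (0.746%) and the apoptosis genes 1 (0.36%) and 11 (3.96%), beside 0.641% and 1.74% of all regions. In WT T1 against WT T2 the other family genes had 2 gained (1.5%) and 0 lost and the apoptosis genes 6 (2.16%) and 2 (0.719%), beside 3.9% and 0.632% of all regions. These shares carry no test.

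The number of Bcl2 regions called per library was most like that of Tbc1d5 (chromosome 17, Pearson r = 0.984), Gclc (chromosome 9, r = 0.980) and Ankrd24 (chromosome 10, r = 0.978), over 8 libraries and among 9100 genes with at least 10 regions. The same numbers had r = 0.869 with the peaks in each list and r = 0.866 with the genome background. All genes share the depth of their library, so these values describe the lists and carry no test.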

How the data were processed

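ATAC-seq peaks of 8 HSC libraries in 4 groups of 2 were used. The submitters' processing notes name Bowtie2, SAMtools, MACS2 and the mm10 build, without tool versions. The authors deposited 1 peak list per library, and no source used here says whether cut sites were shifted. The deposited fold enrichment is a ratio that divides summit height by nearby background within 1 library. The deposited −log10 p-value and −log10 q-value come from the peak caller, and the lowest −log10 q was 3.00 to 3.04 per list. A region missing from a list may be open below that threshold.

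Autosomal and X peaks that overlapped by at least 1 bp were merged, and a region was called where a peak of the library overlapped it. Its fold enrichment is that of the strongest peak there, set side by side as a description. Gained means called in every library of the first group and none of the second, lost the reverse. Single regions were not tested, since each group has 2 libraries.

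Summit fragments were solved by combining each peak's deposited ratio with its −log10 p-value, taking MACS2's Poisson tail and its added pseudocount of 1. For 99.9896% to 99.9933% of peaks per list a whole number of fragments gave back the −log10 p-value to within 0.001. The lowest local background in a list served as its depth. Fragments are PCR products without molecular identifiers, so they carry counting error and more.

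Gene spans came from RefSeq GRCm38.p6 (21631 protein-coding genes) and starts from its promoter table. Genes were tested by exact permutation over 70 arrangements with Benjamini-Hochberg adjustment. Scripts (Python 3.11.15, numpy 2.4.6, pandas 2.3.3, scipy 1.17.1, matplotlib 3.10.9) were tested on simulated data. The 9 members, the lists, and the tests were chosen with earlier results of these data known. Named regions are those over a start, the one called in every library with the highest lowest value, and all gained or lost. Other peak lists, windows, call rules, a replicate block and leaving out each library were tried as alternatives. The gene ends of HSC and other cell markers were checked for a region called in every library.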

Additional observations from a re-analysis of the deposited data

Results flagged for a closer look

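In 56 groups of 4 libraries, a value was singled out when it stood far from the other 3. For continuous values chance alone does so in about 1 in 20 groups. For fold enrichment there were 3 such values in 36 groups. Pmaip1's strongest region had 11.6 in MUT T2 replicate 2, against 12.8 to 12.9 in the other MUT libraries. The second Bcl2l11 start region had 4.84 in MUT T1 replicate 2, against 3.44 to 3.61 in the other MUT libraries, and the Bcl2l1 start region 9.37 in WT T2 replicate 2, against 7.94 to 8.12 in the other WT libraries. Those 2 libraries were the shallowest of the 8.

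For numbers of regions called, 6 values were singled out in 20 groups, 5 of them by a gap of 1 region. In whole numbers with ties a single region is enough, so the share of 1 in 20 does not hold for them. Bcl2l1 had 15 in WT T1 replicate 1, against 13 in each other WT library. Bbc3 had 11 in MUT T1 replicate 1, against 12 in the other MUT libraries. Bak1 had 12 in MUT T1 replicate 1, against 11 in the other MUT libraries, and 10 in WT T2 replicate 2, against 11 in the other WT libraries. Pmaip1 had 7 in MUT T2 replicate 1 and 7 in WT T1 replicate 2, against 6 in every other library.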

How the results depend on the processing

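With equal numbers of peaks per list (62232), gained and lost regions numbered 3 and 4 in MUT T2 against WT T2 and 3 and 3 in WT T1 against WT T2, and MUT T1 against MUT T2 had 1 lost. Scaling depth to the shallowest list only rescored called peaks and left 62231 to 72086 peaks per list. With it, lost regions numbered 2 in MUT T1 against MUT T2. Gained and lost regions were then 5 and 2 in MUT T2 against WT T2 and 6 and 1 in WT T1 against WT T2. With nearest genes only there were 67 regions, 43 of them called in every library, with 3 gained in MUT T2 against WT T2, 1 lost in MUT T1 against WT T1, and 4 gained and 0 lost in WT T1 against WT T2. When a library's peaks had to cover a share of at least 0.5 of a region to call it, 61 regions were called in every library, against 85. For gained and lost regions this rule applied to the group with the calls, and the other group still had to have no overlapping peak. Then 0 were gained in MUT T1 against WT T1 and 0 lost in MUT T2 against WT T2. With fixed windows around summits, MUT T1 against MUT T2 had 1 gained and WT T1 against WT T2 had 2 lost. A window of 10 kb held 64 regions, 38 called in every library, and one of 100 kb 205 and 131. A −log10 q of 5 or above moved none of these counts by over 1.5 times, and all MUT against all WT stayed at 0 gained and 0 lost under these lists and definitions, except that it was not run for the 10 kb and 100 kb windows. The regions at the 9 genes whose fold enrichment did not overlap between MUT and WT numbered 1 after division by the library median. The causes of these shifts were not tested.

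With each library left out in turn, regions numbered 129 to 133 in all and 84 to 88 called everywhere. Gained and lost ranged over 1 to 9 and 4 to 14 in MUT T1 against WT T1, 8 to 15 and 2 to 4 in MUT T2 against WT T2, 1 to 7 and 3 to 7 in MUT T1 against MUT T2, 9 to 15 and 1 to 3 in WT T1 against WT T2, and 0 to 2 and 0 to 1 in all MUT against all WT. Regions without overlap ranged over 0 to 4, and genes passing stayed at 0. Except for genes passing, these counts have no share over all regions beside them.

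With labels exchanged only within pairs of the same population and replicate number (the replicate block), 0 genes passed and 0 had a permutation p under 0.05, as 16 arrangements allow no p below 0.125. Without the block 163 had an exact permutation p under 0.05, against 153 to 198 with other peak lists and 215 to 497 with a library left out, the most without MUT T1 replicate 2. The deviations of replicate 1 from its group mean had correlations of 0.0158 to 0.0764 between groups. The highest were MUT T1 with MUT T2 (0.0764) and WT T1 with WT T2 (0.0577), and the other pairs had 0.0158 to 0.0326. Correlations this weak do not tell whether libraries of the same replicate number came from the same animals.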
